A study of Mus musculus with 6 samples.

Results

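Potassium channel genes were examined across 6 mouse brain lesions. A gene entered when its probe set carried exactly 1 gene symbol and that symbol had the form Kcn, letters and a number. Kcna1, Kcna2, Kcnj10 and Kcnj8 were left out. Where a gene had several such probe sets, the one with the highest average over the 6 arrays was used. This gave 82 genes of 22180 measured in the same way. They comprised 34 voltage-gated pore subunits, 11 auxiliary subunits of voltage-gated channels, 12 inward rectifiers, 13 two-pore channels and 12 subunits of calcium-activated channels and their Slo relatives. The rule on symbols uses no measured value, but the set was chosen with earlier results of these data known.

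The transgenic mice carried a transgene by which GFAP-positive astrocytes that are not dividing can be removed through induced apoptosis, and the controls were wild type mice. Neither the strain nor the promoter that drives the transgene is named in the labels. Mice of both genotypes aged 5 to 6 weeks received a demyelinating LPC injection into the brain, then CID, the compound that triggers the ablation, 48 hours later. Lesions were macrodissected 7 days after LPC, and total RNA of each was hybridised to 1 array, with 3 transgenic and 3 wild type lesions. Both groups therefore carried the lesion and received CID. The labels leave it unsaid whether each lesion of a group was from a different animal, and p-values therefore reflect the spread among these 6 samples alone.

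Potassium channels let potassium ions leave or enter the cell along their gradient and so set the resting potential and end the action potential. Voltage-gated channels open on depolarisation, inward rectifiers pass current best near rest, two-pore channels carry the background leak, and calcium-activated channels couple the potential to intracellular calcium. In brain tissue neurons use most of these families, astrocytes rely on inward rectifiers and two-pore channels to take up potassium around active axons, and microglia use a small set of their own.

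Levels below are log2 intensities and differences are transgenic minus wild type, tested with limma over all 41345 probe sets. The lesions contained transcripts of neurons and glia: the general neuron list averaged 9.53, 10.04 and 9.90 on transgenic arrays, against 9.47, 9.64 and 9.67 on wild type arrays, and the astrocyte list 7.71 to 8.24 on transgenic and 8.18 to 8.36 on wild type arrays. All these lay above the array medians of 5.34 to 5.59. Gfap, the filament gene that defines the targeted cells, stood at 8.99 ± 0.22 in transgenic and 9.37 ± 0.40 in wild type lesions (SD, n = 3 each). Similarity between arrays was lower in the transgenic group, with Pearson correlations of 0.928 to 0.968 among transgenic and 0.980 to 0.984 among wild type arrays. Transgenic replicates 1 and 3 expressed Y-linked genes, whereas transgenic replicate 2 and all wild type arrays expressed Xist, so genotype and sex largely coincided. In such bulk samples, fewer cells of a type and less RNA per cell cannot be told apart.

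No potassium channel gene passed the adjusted threshold of 0.05, and neither did any other probe set (0.0% of 41345 in limma). The smallest adjusted p among the channel genes was 0.401, for Kcnab3. At an unadjusted p under 0.05 there were 10 of 82 channel genes (12.2%), against 6.98% of all genes. Of these, 9 had higher means in transgenic lesions, where 3.93% of all genes did, and 1 a lower mean, where 3.06% did. The groups did not overlap for 10 of the 82 (12.2%), fewer than the 15.4% of all genes, so by this count the channel genes did not stand out. Transgenic arrays lay above in 8 of these genes, where they did for 8.38% of all genes, and below in 2, where they did for 7.0%. Means were higher in transgenic lesions for 52 channel genes (63.4%, against 48.7% of all genes) and lower for 30. The median difference was 0.11, against -0.01 over all genes. Among the 63 channel genes whose mean lay above the median probe set, 42 were higher (66.7%, against 50.8% of all genes of that kind), with a median of 0.12. In 15.9% of the 63 the unadjusted p was under 0.05, against 8.71%, and in 14.3% the groups did not overlap, against 17.8%. The 19 dimmer genes split into 10 higher and 9 lower, and none had an unadjusted p under 0.05 (0.0%, against 6.98% of all genes, bright and dim). In a set of 19, a count of 0 differs little from that share.

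The count of 10 depended on single arrays. It was 21, all higher, without transgenic replicate 1, where the share over all genes was 10.5%. Leaving out transgenic replicate 2 gave 4 and leaving out transgenic replicate 3 gave 5. Of the wild type arrays, leaving out replicate 1 gave 7, replicate 2 gave 3 and replicate 3 gave 4. Over all 41345 probe sets the count was 3668 with every array in. It was 5168, 4170 and 3792 without transgenic replicates 1, 2 and 3, and 2031, 2253 and 2794 without wild type replicates 1, 2 and 3. Without transgenic replicate 2 or 3 the channel count thus fell while the count over all probe sets rose. Kcnab3 and Kcnk9 had an unadjusted p under 0.05 whichever array was left out. The other 8 genes did not keep it without at least 1 of the arrays, although each kept its sign.

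**Figure D1:**
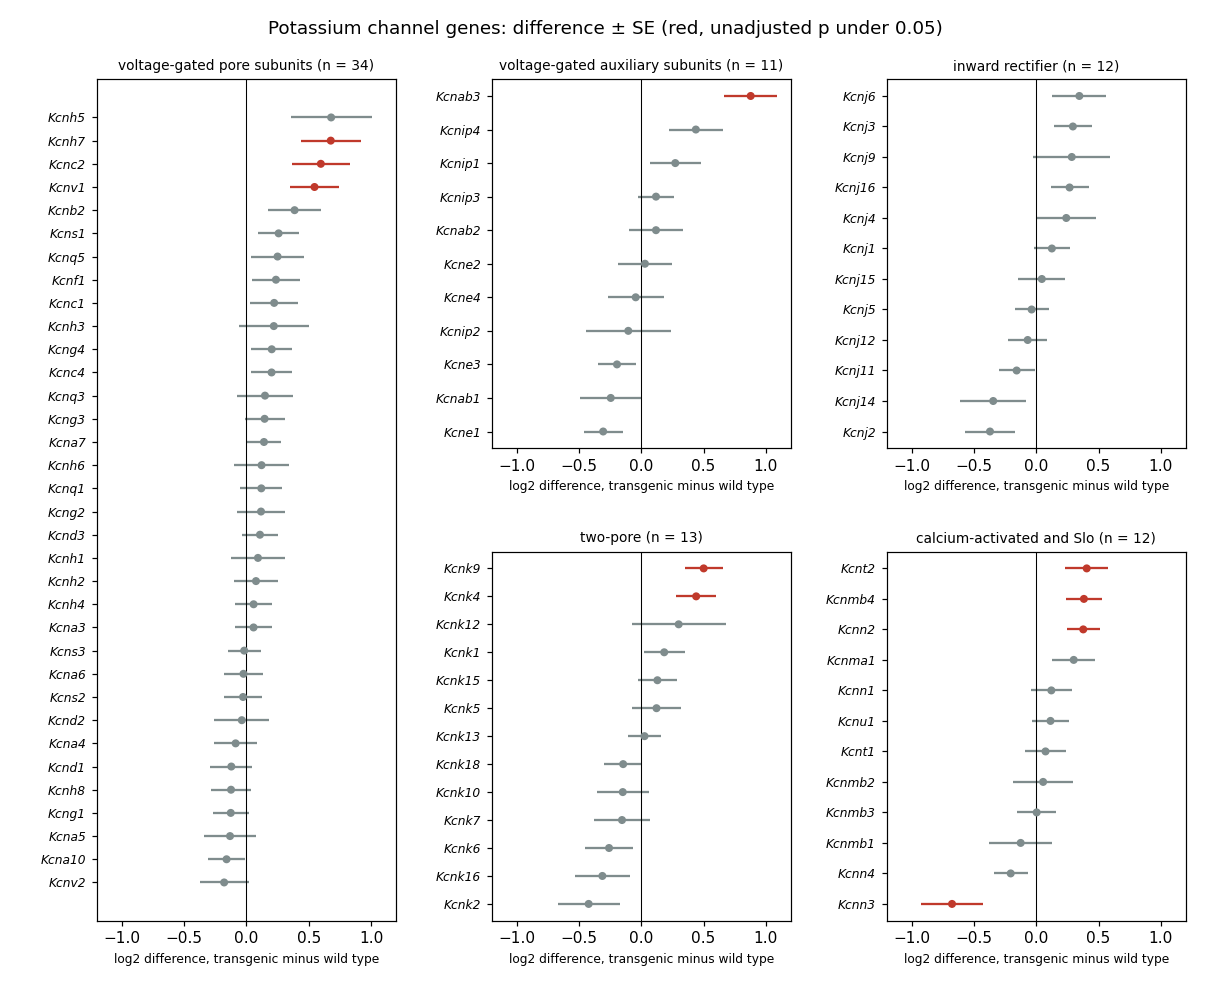
Each point is the log2 difference of 1 channel gene, transgenic minus wild type, with its standard error from limma as a bar, grouped by channel class and sorted within it. Red marks the 10 genes at an unadjusted p under 0.05, of which Kcnn3 alone lies left of 0. None of them passed after adjustment.

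**Figure D2:**
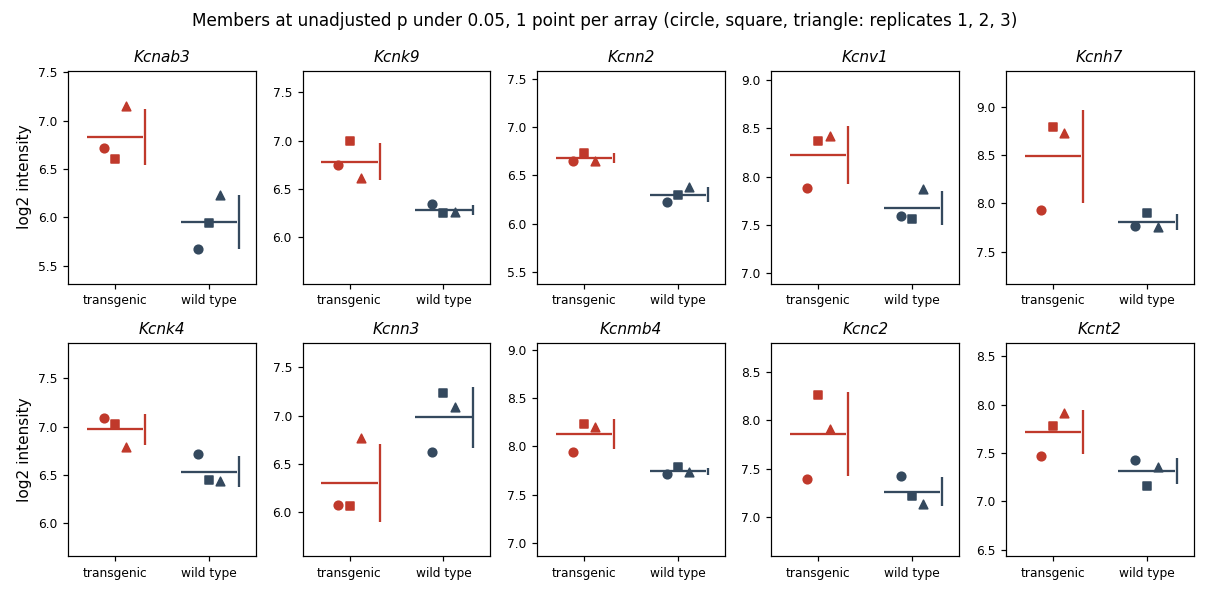
Log2 intensity of the 10 channel genes at an unadjusted p under 0.05, with 1 point per array, the mean as a horizontal line and the SD (n = 3) as a vertical bar. Every panel spans the same range of log2 units. Transgenic arrays lie above all wild type arrays in 8 panels, and the groups overlap for Kcnc2 and Kcnn3.

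Among voltage-gated pore subunits, 23 of 34 were higher on average in transgenic lesions, and the differences had a median of 0.12 and a range of -0.18 to 0.68. Kcnh7, a channel of the Erg group, had 7.93, 8.79 and 8.73 in transgenic lesions, against 7.77, 7.90 and 7.75 in wild type lesions. All 3 transgenic arrays lay above the wild type arrays, replicate 1 only just. The difference was 0.68 (SE 0.24, 1.60-fold, adjusted p 0.513 in limma). Kcnh5, of the related Eag group, stood at 7.30, 8.21 and 8.49 in transgenic lesions, against 7.10, 7.18 and 7.69 in wild type lesions. Transgenic replicate 1 lay within the wild type range, and the difference of 0.68 (SE 0.33) had an unadjusted p of 0.0733. Over the 8 Kcnh genes, 7 had higher means and only Kcnh8 a lower one (-0.12).

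Kcnv1 encodes a subunit that forms no channel alone and alters the gating of Kcnb channels. It had 7.88, 8.37 and 8.42 in transgenic lesions, against 7.59, 7.57 and 7.88 in wild type lesions. Transgenic replicate 1 was barely above wild type replicate 3, and the difference was 0.55 (SE 0.19, 1.46-fold, adjusted p 0.506 in limma). Kcnb2, a delayed rectifier of the family that Kcnv1 joins, had 6.99, 7.76 and 7.59 in transgenic lesions, against 7.04, 7.09 and 7.06 in wild type lesions. Here transgenic replicate 1 was the lowest of all arrays and the other transgenic arrays the highest. Of the 10 electrically silent subunits of the Kcnf, Kcng, Kcns and Kcnv groups, 6 had higher means. Kcns3, known from parvalbumin interneurons of human cortex, was nearly level at 6.54 ± 0.08 in transgenic and 6.56 ± 0.06 in wild type lesions (SD, n = 3 each).

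The Kcnc channels close fast and let interneurons fire at high rates. Kcnc2 had 7.40, 8.26 and 7.91 in transgenic lesions, against 7.43, 7.22 and 7.14 in wild type lesions. Transgenic replicate 1 lay inside the wild type range, so the groups overlapped, with a difference of 0.60 (SE 0.23, 1.51-fold, adjusted p 0.535 in limma). Kcnc1 differed by 0.22 (SE 0.19) and Kcnc4 by 0.20 (SE 0.16). In both genes transgenic replicates 2 and 3 were the highest arrays. The parvalbumin interneuron list averaged 6.79, 7.15 and 7.03 in transgenic lesions, against 6.40, 6.96 and 7.20 in wild type lesions, so the list means overlapped between the groups. Pvalb itself, the calcium-buffering protein that names these cells, had 8.89, 8.81 and 8.70 in transgenic lesions, against 6.98, 7.30 and 7.89 in wild type lesions, a difference of 1.41 (SE 0.24, adjusted p 0.261 in limma). Its groups did not overlap, nor did those of Btbd11, also with transgenic arrays above, while the other 5 markers overlapped. Tac1 had its highest values on wild type replicates 2 and 3. The part of these markers in the Kcnc differences was not tested.

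Channels of the threshold range showed smaller differences. Kcnq3 and Kcnq5, subunits of the M current that restrains firing, differed by 0.15 (SE 0.22) and 0.25 (SE 0.21). Kcnd2, the A-type channel of dendrites, stood at 9.11 ± 0.32 in transgenic and 9.14 ± 0.28 in wild type lesions (SD, n = 3 each). Of the Kcna group without its left-out members, 4 of 6 genes were lower, within -0.16 to 0.14. Kcna3, a channel of lymphocytes and activated microglia, differed by 0.06 (SE 0.15), Kcna4 by -0.09 (SE 0.17) and Kcna6 by -0.02 (SE 0.16).

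Auxiliary subunits split almost evenly, with 6 of 11 higher and a median difference of 0.03. Kcnab3, a cytoplasmic beta subunit that binds Kcna channels, had the largest difference of all 82 genes. It stood at 6.72, 6.60 and 7.15 in transgenic lesions, against 5.67, 5.94 and 6.23 in wild type lesions. Every transgenic array lay above every wild type array, and the difference was 0.88 (SE 0.21, 1.84-fold, adjusted p 0.401 in limma). Its second probe set, which was dimmer, differed by only 0.16 (p 0.298), so the probe sets of Kcnab3 differed in size. When sex was added to the model, which leaves the genotype difference to transgenic replicate 2, it was 0.66 with an unadjusted p of 0.0523.

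Of the calcium-binding partners of Kcnd channels, Kcnip4 had 7.77, 8.61 and 8.19 in transgenic lesions, against 7.78, 7.78 and 7.70 in wild type lesions, a difference of 0.44 (SE 0.22, unadjusted p 0.0842 in limma). Transgenic replicate 1 again lay among the wild type arrays. Kcnip1, with 5.87, 6.48 and 5.92 in transgenic lesions and 5.91, 5.92 and 5.63 in wild type lesions, differed by 0.27. Kcne1, a single-span subunit that partners Kcnq1 in heart and inner ear, had 5.06, 5.00 and 4.95 in transgenic lesions, against 5.20, 5.55 and 5.18 in wild type lesions. The groups did not overlap, but its levels were below all array medians except on wild type replicate 2, and the difference was -0.31 (SE 0.16).

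No inward rectifier had an unadjusted p under 0.05 (0.0%, against 6.98% of all genes). In none of the 12 did the groups stay apart (0.0%, against 15.4%). In a class of 12 genes, counts of 0 differ little from these shares. The first count was 5 with array weights, 3 without transgenic replicate 1, and 1 without transgenic replicate 2 or with the pseudocount. It was 0 without any other single array. Over all probe sets the count also rose in these 4 settings, from 3668 to 10793, 5168, 4170 and 3858 in that order. With sex as a covariate, which leaves the genotype difference to transgenic replicate 2, differences were larger for Kcnj6 (0.67), Kcnj9 (0.88) and Kcnj14 (-0.83). That of Kcnj2 was smaller (-0.10). The G protein-gated channels, which neurotransmitters open to quieten neurons, had higher means in 3 of 4 genes. Kcnj3 had 8.33, 8.59 and 8.69 in transgenic lesions, against 8.33, 8.23 and 8.16 in wild type lesions, a difference of 0.29 (SE 0.15, unadjusted p 0.0953 in limma). Kcnj6 had 6.79, 7.52 and 7.28 in transgenic lesions, against 6.95, 6.66 and 6.94 in wild type lesions, a difference of 0.35 (SE 0.22). Kcnj9 had 6.72, 8.02 and 7.55 in transgenic lesions, against 7.16, 7.17 and 7.10 in wild type lesions. Its transgenic arrays thus spanned a far wider range than its wild type arrays, from below all of them to above all of them. In all 3 genes transgenic replicates 2 and 3 were the highest arrays.

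Kcnj2, a strong inward rectifier of neurons and glia, had 6.51, 7.06 and 6.79 in transgenic lesions, against 7.42, 6.96 and 7.09 in wild type lesions. The groups overlapped through transgenic replicate 2 and the difference was -0.37 (SE 0.20). Kcnj16, which joins the main inward rectifier of astrocytes in mixed channels, had 6.44, 6.71 and 6.68 in transgenic lesions, against 6.45, 6.39 and 6.19 in wild type lesions. Its difference of 0.27 (SE 0.15) stood beside a median of -0.29 over the 10 astrocyte markers. That median was -0.06 without transgenic replicate 1 and -0.39 to -0.21 without any other single array. Kcnj4, a strong rectifier of forebrain neurons, differed by 0.24 (SE 0.24). The other inward rectifiers ranged from -0.34 (Kcnj14) to 0.13 (Kcnj1).

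The two-pore channels went both ways, with 7 of 13 higher, a median difference of 0.03 and a range of -0.42 to 0.50. Kcnk9, an acid-sensitive leak channel of neurons, had 6.75, 7.00 and 6.61 in transgenic lesions, against 6.34, 6.25 and 6.26 in wild type lesions. The groups were clearly apart, with a difference of 0.50 (SE 0.15, 1.41-fold, adjusted p 0.484 in limma). Kcnk4, a leak channel opened by membrane stretch that is known from nodes of Ranvier, had 7.09, 7.03 and 6.79 in transgenic lesions, against 6.72, 6.44 and 6.43 in wild type lesions. Transgenic replicate 3 lay only just above wild type replicate 1, and the difference was 0.44 (SE 0.16, 1.36-fold, adjusted p 0.513 in limma). In Kcnk4 the highest array was transgenic replicate 1, in contrast to most voltage-gated genes above.

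Kcnk2, a stretch- and lipid-sensitive leak channel of neurons and astrocytes, had 6.91, 7.51 and 7.50 in transgenic lesions, against 7.31, 7.84 and 8.03 in wild type lesions. The difference of -0.42 (SE 0.25) had an unadjusted p of 0.133 in limma. Kcnk1, another leak channel of astrocytes, stood at 8.21 ± 0.23 in transgenic and 8.03 ± 0.10 in wild type lesions (SD, n = 3 each). Kcnk13, the leak channel of resting microglia, was nearly level at 6.40 ± 0.05 in transgenic and 6.38 ± 0.05 in wild type lesions. The homeostatic microglia list averaged 7.60, 7.65 and 7.68 on transgenic arrays, against 8.85, 7.71 and 7.66 on wild type arrays. Its median difference of -0.52 was -0.12 without wild type replicate 1, a setting chosen after seeing the data. Kcnk6, which macrophages use, differed by -0.26 (SE 0.19), and Kcnk16 by -0.31 (SE 0.22), at levels below every array median.

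Of the 12 subunits of calcium-activated channels and their Slo relatives, 4 had an unadjusted p under 0.05 (33.3%, against 6.98% of all genes). Means were higher in 3 of them, including the sodium-activated Kcnt2, and lower in 1. This count of 4 became 4, 1 and 2 without transgenic replicates 1, 2 and 3. The share of all genes was then 10.5%, 7.48% and 6.63%. Dropping wild type replicates 1, 2 and 3 in turn gave 1, 0 and 1, beside 3.3%, 3.87% and 4.73%. A replicate block gave 1, beside 4.82%. Where the class count fell, the share of all genes fell too, except without transgenic replicate 2. In a class of 12 genes, such counts cannot separate a loss in the class from a general one. Over the class, 9 had higher means and the median difference was 0.09. Kcnn2 and Kcnn3 encode small-conductance channels that contribute to the potential after a spike. Kcnn2 had 6.65, 6.74 and 6.65 in transgenic lesions, against 6.23, 6.30 and 6.38 in wild type lesions. The groups were apart and both tight, with a difference of 0.38 (SE 0.13, 1.30-fold, adjusted p 0.500 in limma). Kcnn3 went the other way, with 6.08, 6.07 and 6.77 in transgenic lesions, against 6.63, 7.23 and 7.09 in wild type lesions. Transgenic replicate 3 lay above wild type replicate 1, so the groups overlapped, and the difference was -0.68 (SE 0.25, 1.60-fold lower, adjusted p 0.519 in limma). Their relatives Kcnn1 and Kcnn4 differed by 0.12 (SE 0.16) and -0.20 (SE 0.14). Kcnn4, the intermediate-conductance channel of microglia and T cells, had 5.90, 6.03 and 5.82 in transgenic lesions, against 6.07, 6.10 and 6.20 in wild type lesions, without overlap.

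The large-conductance channel opens on calcium and depolarisation together, and its beta subunits tune that response. Kcnmb4, the beta subunit of neurons, had 7.94, 8.23 and 8.20 in transgenic lesions, against 7.71, 7.78 and 7.73 in wild type lesions. The groups were apart, with a difference of 0.38 (SE 0.14, 1.30-fold, adjusted p 0.520 in limma), and its second probe set differed by 0.41 (p 0.035). A further probe set carried the symbols of both Kcnmb4 and Kcnmb4os1 and was not used. The pore gene Kcnma1 had 8.90, 9.38 and 9.32 in transgenic lesions, against 8.85, 8.89 and 8.96 in wild type lesions, a difference of 0.30 (SE 0.17). Kcnmb1, the beta subunit of smooth muscle, differed by -0.12 (SE 0.25). Kcnt2, a sodium-activated Slo channel, had 7.47, 7.78 and 7.92 in transgenic lesions, against 7.43, 7.16 and 7.36 in wild type lesions. Its transgenic replicate 1 was barely above wild type replicate 1, and the difference was 0.41 (SE 0.17, 1.32-fold, adjusted p 0.561 in limma).

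Promoter windows of 300 bases, from 250 before to 50 after the start of the transcript, are shown for Kcnn3, the only gene lower at an unadjusted p under 0.05, and for Kcnh7 and Kcnmb4, which were higher. They are RefSeq sequences of build GRCm38.p6, with the GC box GGGCGG on either strand in capitals.
Kcnn3, chr3:89519914-89520213, plus strand: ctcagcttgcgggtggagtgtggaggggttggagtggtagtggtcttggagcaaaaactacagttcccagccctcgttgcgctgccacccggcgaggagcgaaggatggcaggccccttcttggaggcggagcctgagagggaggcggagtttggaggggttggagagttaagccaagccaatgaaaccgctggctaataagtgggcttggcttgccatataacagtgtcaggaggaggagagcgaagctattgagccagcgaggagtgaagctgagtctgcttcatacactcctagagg
Kcnh7, chr2:63184238-63184537, minus strand: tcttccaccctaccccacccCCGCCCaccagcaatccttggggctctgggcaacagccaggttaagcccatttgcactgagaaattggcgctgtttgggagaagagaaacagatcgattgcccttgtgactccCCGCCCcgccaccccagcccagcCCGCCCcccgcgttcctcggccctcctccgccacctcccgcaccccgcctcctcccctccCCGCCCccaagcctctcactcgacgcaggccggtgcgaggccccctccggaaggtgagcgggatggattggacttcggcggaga
Kcnmb4, chr10:116473474-116473773, minus strand: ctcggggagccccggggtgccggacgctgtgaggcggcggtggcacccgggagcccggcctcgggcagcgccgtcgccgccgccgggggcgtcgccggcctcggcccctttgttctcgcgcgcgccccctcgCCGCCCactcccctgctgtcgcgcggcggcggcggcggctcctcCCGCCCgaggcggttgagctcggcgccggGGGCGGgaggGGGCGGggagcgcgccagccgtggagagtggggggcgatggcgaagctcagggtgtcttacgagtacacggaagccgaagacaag
The Kcnn3 window held 0 GC boxes, and those of Kcnh7 and Kcnmb4 held 4 each. The split did not follow direction, as Kcnt2, also higher, held 0 and Kcnk4 held 1. Of the 82 genes, 63 had windows in the table, 88 windows in all. A GC box was found in 47.7% of these windows, against 35.7% of 32851 windows of all genes, and TATAAA on either strand in 4.55%, against 13.6%. CCAAT was found in 29.5%, against 37.4%, and the sequence TGACGTCA in 0.0%, against 1.79%. These matches describe the letters only.

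Many channel genes were ordered alike within the transgenic group. Transgenic replicate 1 was the lowest of the 3 transgenic arrays for 42 of the 63 brighter channel genes (66.7%), against 53.9% of all brighter genes. It was so for 21 of the 34 voltage-gated pore subunits, bright and dim (61.8%), against 53.7% of all 82 channel genes. Transgenic replicate 2 was the highest of all 6 arrays for 33 of the 63 (52.4%), against 40.9% of all brighter genes. Among the 19 dimmer channel genes it was instead the lowest of all arrays for 10 (52.6%), against 39.4% of all dimmer genes. That array also had the lowest median intensity, 5.34. The mean of the voltage-gated pore class was 6.47, 6.77 and 6.71 in transgenic lesions, against 6.47, 6.49 and 6.58 in wild type lesions. Markers of cortical neurons averaged 7.89, 8.60 and 8.31 in transgenic lesions, against 7.93, 7.94 and 7.88 in wild type lesions, and the general neuron list given above had the same order of transgenic arrays. All 7 measured cortical and 10 of 11 general neuron markers had higher means in transgenic lesions. Their part in the channel differences was not tested.

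Other lists had other profiles. Myelin and oligodendrocyte markers averaged 8.56, 9.09 and 8.90 in transgenic lesions, against 10.07, 9.61 and 9.70 in wild type lesions, with all 10 lower. Phagocyte markers averaged 8.87, 7.29 and 7.24 in transgenic lesions, against 9.10, 8.70 and 7.51 in wild type lesions. Transgenic replicate 1 was thus the highest transgenic array for phagocyte markers. It was the lowest transgenic array for most voltage-gated pore genes, as for 53.9% of all brighter genes. The astrocyte markers were also lowest there, at 7.71, against 8.24 and 8.16 on transgenic replicates 2 and 3.

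**Figure D3:**
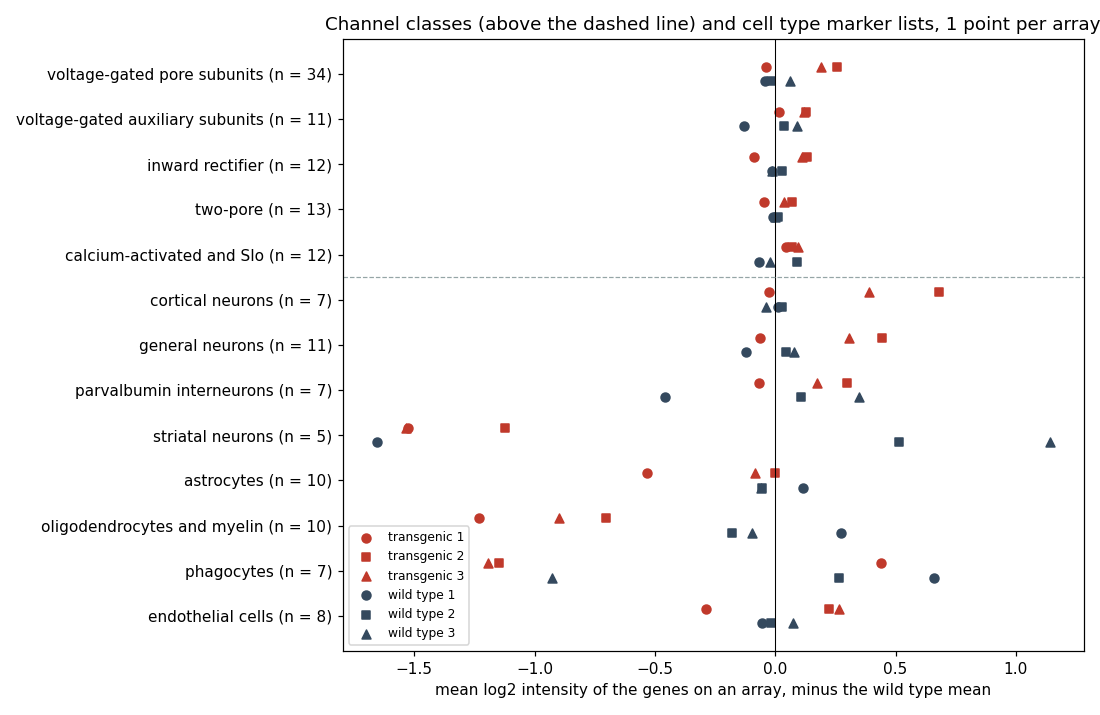
Mean log2 intensity of each channel class and cell type marker list on every array, after subtracting the wild type mean of that set, with transgenic arrays in red above wild type arrays in dark blue. Transgenic replicates 2 and 3 lie right of the other arrays for voltage-gated pore subunits and for cortical and general neuron markers. Striatal markers separate wild type replicates 2 and 3 from the other arrays.

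Kcnip2 and Kcnab1 varied more within the wild type group than between genotypes. Kcnip2, a Kcnd partner rich in striatum, had 6.20, 6.77 and 6.20 in transgenic lesions, against 5.78, 6.62 and 7.08 in wild type lesions. Kcnab1, a beta subunit of striatal and hippocampal neurons, had 6.88, 6.91 and 7.07 in transgenic lesions, against 6.67, 7.30 and 7.63 in wild type lesions. For both genes wild type replicate 1 was the lowest and wild type replicate 3 the highest of all arrays. The second probe set of Kcna4 had 6.86, 7.50 and 7.04 in transgenic lesions, against 6.57, 7.67 and 7.98 in wild type lesions, unlike the probe set used above. Striatal neuron markers averaged 6.12, 6.53 and 6.11 in transgenic lesions, against 5.99, 8.16 and 8.79 in wild type lesions, with all 5 measured markers lower in transgenic lesions. Kcnk2 and Kcnn3, both with lower means in transgenic lesions, also had their highest values on wild type replicates 2 and 3. The part of the striatal markers in these differences was not tested.

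**Figure D4:**
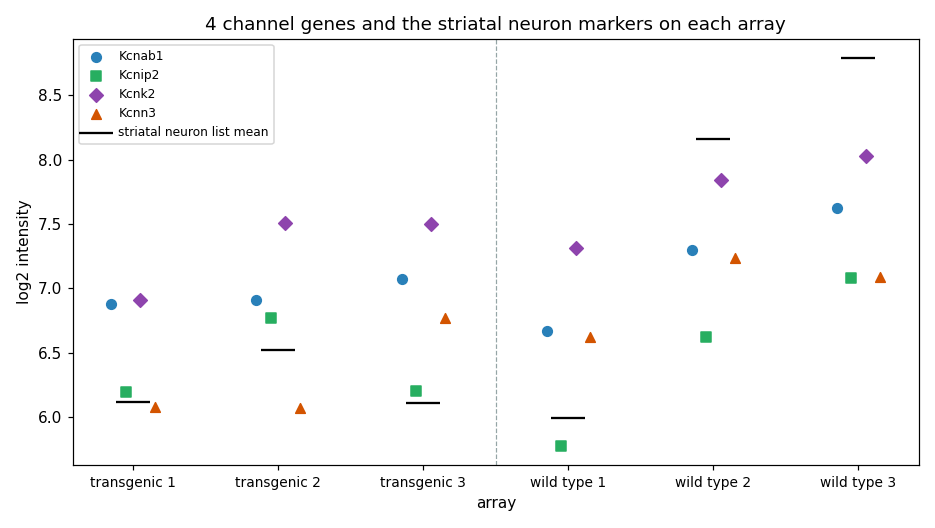
Log2 intensity of Kcnab1, Kcnip2, Kcnk2 and Kcnn3 on each array, transgenic on the left, with the mean of 5 striatal neuron markers as a black bar. Each gene is to be read across arrays and not against the others. Wild type replicates 2 and 3 carry the highest striatal marker means, 8.16 and 8.79, and the highest values of Kcnab1, Kcnk2 and Kcnn3.

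Of 18 proteins that work with potassium channels, 10 had higher and 8 lower means, with a median difference of 0.10, against -0.01 over all genes. An unadjusted p under 0.05 was found for 1 in each direction (11.1%, against 6.98% of all genes), and the groups did not overlap for 4 (22.2%, against 15.4%). Lgi1, a secreted protein that binds presynaptic Kcna channel complexes, differed by 0.39 (SE 0.15). Cntn2, an adhesion molecule that gathers Kcna channels beside the paranode, differed by -0.68 (SE 0.18). Of 6 measured cation-chloride cotransporters only Slc12a2 had an unadjusted p under 0.05 (16.7%, against 6.98% of all genes). Slc12a2, which brings potassium and chloride into glia and immature neurons, differed by -0.78 (SE 0.21). Neither the 3 measured HCN channels (median -0.06) nor the 4 measured subunits of the sodium-potassium ATPase (median -0.10) held such a gene (0.0% each). In sets of 3 to 6 genes, counts of 0 or 1 differ little from the share of all genes.

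Of 7 pairs of channel genes lying within 200 kb of each other in GRCm38.p6, 6 had differences of opposite sign. No gene of these pairs had an unadjusted p under 0.05 in limma. In every pair but Kcnj16 and Kcnj2, at least 1 difference was smaller than its SE, so these signs carry little weight. The share among neighbouring genes in general was not computed. Kcnj16 and Kcnj2 on chromosome 11 had differences of 0.27 and -0.37, Kcnk5 and Kcnk16 on chromosome 14 of 0.12 and -0.31, and Kcnip1 and Kcnmb1 on chromosome 11 of 0.27 and -0.12. Only Kcna5 and Kcna6 on chromosome 6 shared a sign, at -0.13 and -0.02. The locus of Kcnmb1 lies inside that of Kcnip1. For 7 channel genes more than 1 probe set was measured, and in all 7 the probe sets had the same sign.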

How the data were processed

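Per the submitters' processing notes, the authors normalized the deposited intensities by RMA with Affymetrix Expression Console. No version or genome build is given in the sources used here. The values were linear and were turned to log2 without a pseudocount. Detection calls were not used here. Of 41345 probe sets, 23521 had 1 gene symbol in the platform annotation.

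Transgenic and wild type arrays (3 each) were compared with limma 3.58.1 (lmFit and eBayes, R 4.3.3), two-sided, with Benjamini-Hochberg adjustment over all probe sets and no covariate. Precision is limited by the small number of arrays, and the channel genes had a median standard error of 0.176 (log2). Simulated data with known changes were used to test the limma script. SDs are over 3 arrays.

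The genes, their classes, marker lists and tests were chosen with earlier results of these data known. Genes named are those at an unadjusted p under 0.05 without overlap, the 4 with the smallest p in each class, and 28 measured genes of 30 fixed for their roles, 39 in all. A few others named illustrate a family and were chosen after their values were seen. Alternatives covered normalization, filtering, variance models, sex, single arrays, the pseudocount and the choice of probe set.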

Additional observations from a re-analysis of the deposited data

How the results depend on the processing

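All 10 channel genes at an unadjusted p under 0.05 kept their sign under all 16 alternatives run. Their number was 31 with array weights, a fit that gave transgenic replicate 3 a weight of 7.67 and the other transgenic arrays 0.26 to 0.28, 20 with sex as a covariate and 6 in the test without moderated variances. It ranged from 3 to 21 without single arrays. After adjustment over all probe sets 9 of the 82 channel genes passed with array weights, where 2611 of all 41345 probe sets did. Over all probe sets the count at an unadjusted p under 0.05 was 3668, against 10793 with array weights, 8604 with sex as a covariate, 2243 with the dimmer probe sets removed (fewer tested) and 2031 to 5168 without single arrays. After adjustment it was 2611 with array weights, 1481 with sex as a covariate and 0 to 335 without single arrays. With a replicate block 8 channel genes had an unadjusted p under 0.05, 6 of them among the 10. Over all probe sets, same-numbered arrays did not deviate together (correlations 0.01, -0.10 and -0.07). With 1 pair per number, this cannot show whether such arrays shared a batch, and the labels name none. Median differences of the classes shifted between settings. In the main fit they were 0.03 for two-pore channels, 0.09 for the calcium-activated and Slo class and 0.03 for auxiliary subunits. For voltage-gated pore subunits and inward rectifiers only the medians of the main fit are given, 0.12 and 0.09. For two-pore channels the median was 0.13 without dimmer probe sets, 0.080 after median centring and -0.036 to 0.044 without single arrays. It was 0.0011 with array weights and 0.066 to 0.20 without single arrays for the calcium-activated and Slo class. For auxiliary subunits it was 0.22 with sex as a covariate and -0.036 to 0.15 without single arrays. The median of the HCN channels was 0.20 with array weights, 0.17 with sex as a covariate and -0.18 to 0.21 without single arrays. That of the ATPase subunits was 0.059 with array weights and -0.28 without dimmer probe sets, and that of the cotransporters -0.079 to 0.033 without single arrays. The causes of these shifts were not tested. Dim channel genes are limited by the lack of detection calls.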
